A study of Apis mellifera with 18 samples.

Results

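The 2 phospholipase C genes of the honeybee phototransduction pathway, norpA (gene model GB42579) and a gene that the study calls PLC (GB44174), were followed through brain RNA of honeybee queens (Apis mellifera ligustica) in 6 insemination groups. They were chosen by their identifiers, with earlier results of these data known. In these samples, the study had found norpA up-regulated after semen or seminal fluid against controls. The genes are 2 of the 15314 gene models counted in each library and 2 of the 22 genes of the pathway figure of the study. Phospholipase C of the beta type cleaves the membrane lipid phosphatidylinositol 4,5-bisphosphate into inositol trisphosphate and diacylglycerol. In photoreceptors of Drosophila, light-activated rhodopsin acts through a Gq protein on the phospholipase C encoded by norpA, and the TRP and TRPL cation channels open downstream of it. Flies that lack norpA have no electrical response to light, and norpA is also expressed in the fly brain outside the eye. The reference table used here lists both honeybee genes as protein coding, under placeholder symbols only, so PLC is not matched here to a particular fly gene.

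Queens were sisters from a single colony. All of them were exposed to CO2 a day before the treatment, sedated with CO2 for the insemination procedure and sampled 24 h after it. RNA-seq Experiment 1 held mock insemination (the whole procedure with no fluid injected), insemination with 6 µl of semen pooled from about 10 males, and insemination with 6 µl of seminal fluid freed of sperm by centrifugation. RNA-seq Experiment 2 held 6 µl of Hayes saline, semen and seminal fluid. The seminal fluid was a frozen stock from pooled drones, whereas the semen was fresh. Each of the 6 groups was represented by 3 libraries, named replicates A, B and C, and a library was a pool of 3 brains dissected with the optic lobes and without the glands. The control differed between the experiments, so the kind of control and the experiment cannot be told apart.

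A library held 26636844 to 51745752 counts in genes. Levels are given as CPM, the counts of a gene relative to the library total, after the 18 libraries were scaled together by TMM factors (the trimmed mean of M values). Fold changes, standard errors (SE) and adjusted p values are from edgeR's quasi-likelihood test with Benjamini-Hochberg adjustment over all genes tested, and the threshold for a call was 0.1, the rate of false discoveries that the study allowed. GB49544, the gene with the most counts, made up 0.840% to 9.96% of a library. The seminal fluid library of replicate C in Experiment 2 stood apart from its group in this gene, with 8.90% beside 0.840% and 0.949%. The sequences of both genes were not used here.

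Both genes were deeply counted, so that the spread between pools and not the number of reads set the precision for all but 1 group. norpA had 5787 to 16851 counts per library and stood at rank 467 of 12052 genes in mean log2 CPM, and PLC had 9253 to 28205 counts and stood at rank 297. The length of a gene also enters such a rank, and the levels of the 2 genes are not compared with each other. The error from counting alone averaged 0.805% to 1.21% of the level for norpA and 0.625% to 0.998% for PLC, depending on the group.

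In Experiment 1, norpA was higher in every pool of queens given semen or seminal fluid than in every mock pool. The mock libraries held 272, 254 and 260 CPM of norpA (replicates A, B and C). The semen libraries held 404, 390 and 367 CPM. The seminal fluid libraries held 389, 392 and 429 CPM. Neither treated group overlapped with the mock group, as was the case for 6.34% of 11761 genes that were higher after semen and for 8.28% that were higher after seminal fluid. The treated groups overlapped with each other. In pooled tissue, fewer cells that hold a transcript and less of it per cell cannot be told apart. The group means were 262 ± 8.81 CPM (SD, n = 3) after mock insemination, 387 ± 18.9 CPM (SD, n = 3) after semen and 403 ± 22.8 CPM (SD, n = 3) after seminal fluid.

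Experiment 2 gave the same order of treated and control pools for norpA. The saline libraries held 219, 247 and 250 CPM. The semen libraries held 338, 328 and 347 CPM. The seminal fluid libraries held 337, 338 and 334 CPM. Again, all treated libraries lay above all controls, a pattern shared by 7.16% of the 11899 genes tested in the semen comparison and 6.77% in that of seminal fluid. The range of the seminal fluid pools fell inside that of the semen pools. The means were 239 ± 17.0 CPM (SD, n = 3) after saline, 338 ± 9.51 CPM (SD, n = 3) after semen and 337 ± 1.98 CPM (SD, n = 3) after seminal fluid. The coefficient of variation in the last group, 0.587%, was below the 0.805% that counting alone gives.

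The groups overlapped more for PLC, and its coefficient of variation was above that of norpA in every group but saline (5.23% for PLC against 7.10% for norpA). In Experiment 1, the mock libraries held 395, 407 and 357 CPM of PLC (replicates A, B and C). The semen libraries held 506, 453 and 469 CPM. The seminal fluid libraries held 576, 360 and 403 CPM. The semen pools thus lay above the mock pools, as was the case for 6.34% of 11761 genes. Of the seminal fluid pools, 1 lay well above the mock range and the other 2 lay within it. The coefficient of variation of PLC was 25.6% in this seminal fluid group, against 5.65% for norpA in the same 3 libraries. The pool with the highest PLC level, replicate A, had the lowest norpA level of its group.

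In Experiment 2, PLC stood at 444, 482 and 490 CPM in the saline libraries. It stood at 553, 470 and 550 CPM in the semen libraries. It stood at 549, 601 and 528 CPM in the seminal fluid libraries. The seminal fluid pools were above all saline pools, a pattern shared by 6.77% of 11899 genes, and semen replicate B fell within the saline range. The group means of PLC ran from 386 ± 26.0 CPM (SD, n = 3) after mock insemination to 559 ± 38.0 CPM (SD, n = 3) after seminal fluid in Experiment 2.

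**Figure D1:**
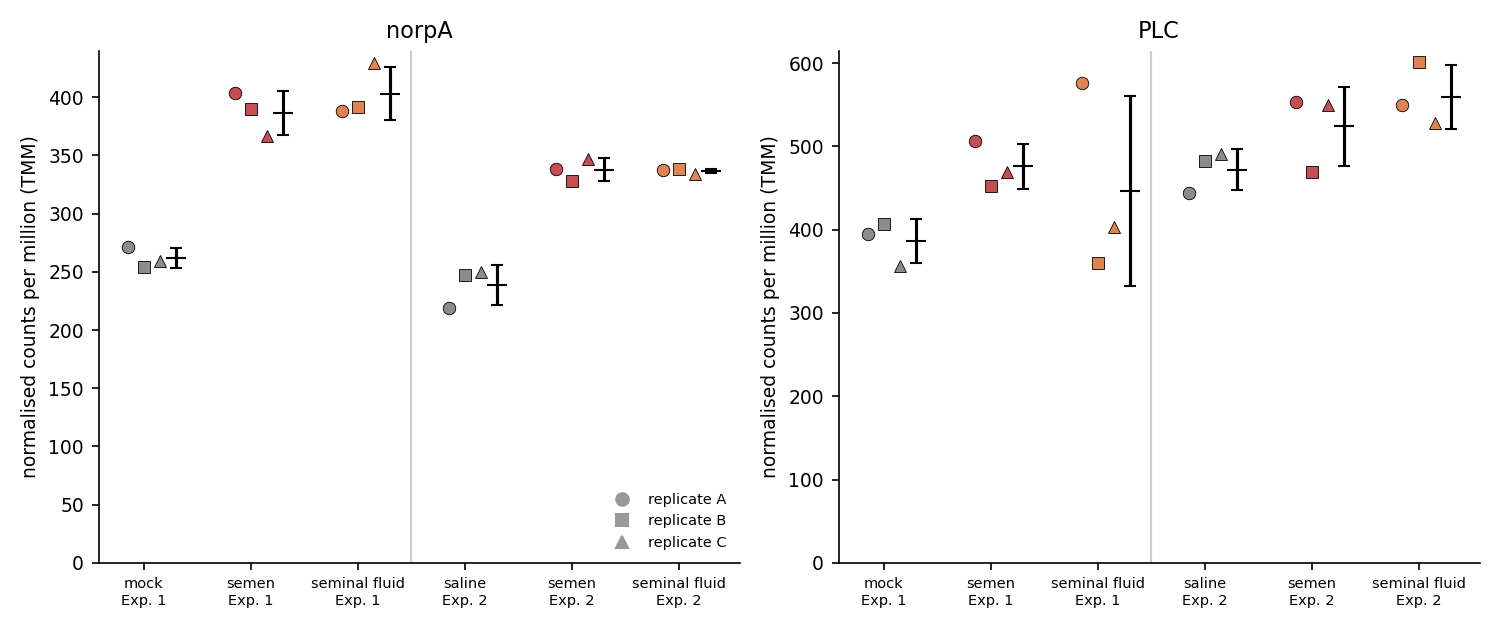
Normalised CPM (vertical axis) of norpA (left) and PLC (right) in each of the 18 libraries, by group; symbols mark replicates A, B and C, and bars show the mean ± SD of the 3 libraries of a group. All 12 libraries of semen and seminal fluid groups lie above all 6 controls for norpA, at 328 CPM or more against 272 CPM or less, and PLC shows no such gap.

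Ordered by mean level, norpA was higher in every inseminated group than in either control. Seminal fluid and semen of Experiment 1 came first and overlapped, followed by semen and seminal fluid of Experiment 2, which also overlapped. Mock insemination and saline came last, at 262 and 239 CPM, with no overlap between them. edgeR did not call norpA between these controls (adjusted p = 0.16), and the share of all genes without overlap there is not given here. For PLC, every group overlapped with its neighbour in the order, which ran from seminal fluid and semen of Experiment 2 through semen of Experiment 1, saline and seminal fluid of Experiment 1 to mock insemination. The 2 genes thus differed, on this scale, in which experiment held the higher levels.

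The comparisons with controls ask whether receiving semen, or its fluid without sperm, was followed by a change of these transcripts. Mock queens received no fluid, so in Experiment 1 the injected volume and what it held cannot be told apart. The contrast over both experiments includes these comparisons. norpA was 1.47-fold higher after semen than after mock insemination, a log2 fold change of 0.56 (SE 0.10, 95% interval 0.33 to 0.78). This difference was not called by edgeR (adjusted p = 0.114). edgeR called 15 of 11761 genes in this comparison, or 0.128%, all of them higher after semen. That count was 24 without seminal fluid replicate A, 13 without seminal fluid replicate C, and 3 to 9 without any of the other 7 libraries of the experiment. DESeq2 and the fit of all 18 libraries both called norpA here, with adjusted p values of 5.1e-06 and 0.0029. The log2 fold change ranged from 0.55 to 0.58 over the alternative fits of these libraries.

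After seminal fluid, norpA was 1.55-fold higher than after mock insemination (0.63 on the log2 scale with an SE of 0.10 and a 95% interval of 0.41 to 0.86, adjusted p = 0.057). It was among the 19 of 11761 genes called by edgeR (0.162%). The count fell to 9 when seminal fluid replicate C was left out and to 6, 4 and 4 when mock replicate A, B or C was, and it was 13 to 21 without any of the others. The norpA call was lost when any of 6 of the 9 libraries of the experiment was left out. These were mock replicates A, B and C (adjusted p = 0.23, 0.30 and 0.23), semen replicate B (0.13) and seminal fluid replicates B and C (0.14 and 0.32). Over those fits the log2 fold change stayed between 0.59 and 0.66, and DESeq2 called norpA in all 9 fits with a library left out.

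In Experiment 2, norpA was 1.43-fold higher after semen than after saline (log2 fold change 0.51, SE 0.071, 95% interval 0.35 to 0.68, adjusted p = 0.025). edgeR called 39 of 11899 genes in this comparison (0.328%). The count was 74 without seminal fluid replicate C, and 97, 9 and 25 when saline replicate A, B or C was left out. It was 17, 71 and 14 when semen replicate A, B or C was. Without saline replicate B, semen replicate A or semen replicate C the adjusted p rose to 0.12, 0.14 and 0.14, at log2 fold changes of 0.54, 0.51 and 0.49. After seminal fluid, norpA was 1.40-fold higher than after saline (log2 fold change 0.49, SE 0.071, 95% interval 0.33 to 0.65, adjusted p = 0.029), among 51 of 11899 genes called (0.429%). This count was 29, 25 and 95 when seminal fluid replicate A, B or C was left out, 16 without saline replicate B and 1074 without saline replicate C. Without saline replicate B, seminal fluid replicate A or seminal fluid replicate B the adjusted p rose to 0.11, 0.14 and 0.13, at 0.52, 0.49 and 0.49. The semen and seminal fluid comparisons of an experiment share its 3 control libraries, so their values are not independent of each other.

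PLC was not called in any comparison with controls by edgeR. Against mock insemination it gave a log2 fold change of 0.29 with semen (SE 0.16, adjusted p = 0.98) and of 0.21 with seminal fluid (SE 0.16, adjusted p = 0.58). Against saline the values were 0.16 with semen (SE 0.094, adjusted p = 0.65) and 0.24 with seminal fluid (SE 0.094, adjusted p = 0.45). All 4 point estimates were positive, and the 95% interval excluded 0 only for seminal fluid against saline, at 0.026 to 0.45. The value for seminal fluid against mock insemination rested on replicate A, since without that library it was 0.014 (adjusted p = 0.98).

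**Figure D2:**
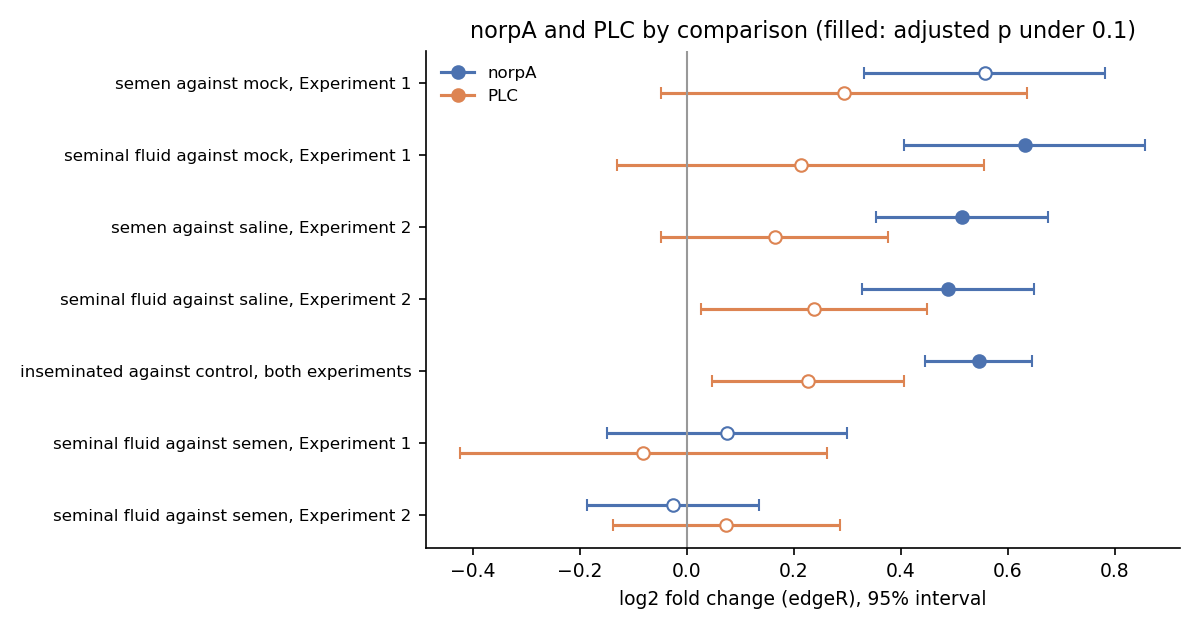
Log2 fold changes (horizontal axis) with 95% intervals from edgeR for norpA and PLC in each comparison; filled points have an adjusted p under 0.1. The norpA values against controls lie between 0.49 and 0.63 and those of PLC between 0.16 and 0.29, and both genes lie near 0 between seminal fluid and semen.

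Taking both experiments in 1 fit of 18 libraries, norpA was 1.46-fold higher in inseminated queens (semen and seminal fluid groups together) than in controls. The log2 fold change was 0.55 (SE 0.047, 95% interval 0.45 to 0.65, adjusted p = 9.7e-06), and norpA had the fifth smallest p value of 12052 genes. In this fit 313 genes were called (2.60%), 199 of them higher (1.65%), and 97.9% of all genes had a smaller log2 fold change than norpA. The number of genes called was 185 without mock replicate C, 174 and 499 without saline replicates B and C, and 218 to 381 without any of the other libraries. The norpA value kept its call when any of the 18 libraries was left out, at 0.52 to 0.57. PLC gave a log2 fold change of 0.23 (SE 0.085, 95% interval 0.046 to 0.41), which was not called (adjusted p = 0.22). Its p value before adjustment was 0.017, and 14.5% of all genes had one under 0.05.

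The comparison of seminal fluid with semen sets fluid without sperm beside fluid with it, and the groups overlapped for both genes in both experiments. The seminal fluid was also a frozen stock from pooled drones and the semen was fresh, so sperm and these differences cannot be told apart. Between seminal fluid and semen, norpA gave a log2 fold change of 0.076 (95% interval -0.15 to 0.30, adjusted p = 0.97) in Experiment 1 and of -0.026 (95% interval -0.19 to 0.13, adjusted p = 0.87) in Experiment 2. PLC gave -0.081 (95% interval -0.42 to 0.26, adjusted p = 0.98) and 0.074 (95% interval -0.14 to 0.29, adjusted p = 0.70). As folds, the intervals for norpA ran from 0.902 to 1.23 and from 0.879 to 1.10, and those for PLC from 0.746 to 1.20 and from 0.909 to 1.22. edgeR called 0 of 11761 genes (0.00%) between these groups in Experiment 1, where 5.78% of genes had a p value under 0.05 and DESeq2 called 1 gene, and 1 of 11899 genes (0.00840%) in Experiment 2, where 18.6% of genes had a p value under 0.05 and DESeq2 called 831. With each library left out, edgeR called 0 genes in Experiment 1, except for 1 gene without seminal fluid replicate A. In Experiment 2 it called 747 genes without saline replicate C, 92 without semen replicate B and 0 to 2 without any of the others. Neither phospholipase C gene was called by DESeq2 in either.

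The rise of norpA was also not shown to differ between the experiments. The difference of the log2 fold change of inseminated against control queens, Experiment 2 minus Experiment 1, was -0.094 for norpA (95% interval -0.29 to 0.10, adjusted p = 0.96) and -0.057 for PLC (95% interval -0.41 to 0.30, adjusted p = 0.99), with 1 of 12052 genes called (0.00830%). The levels themselves did differ. Among inseminated queens, norpA was lower in Experiment 2 than in Experiment 1 (log2 fold change -0.23, SE 0.053, adjusted p = 0.0014) and PLC was higher (0.23, SE 0.097, adjusted p = 0.046), in a contrast in which 69.8% of 12052 genes were called. The direction for norpA depended on the scaling of the libraries, since without scaling factors norpA gave 0.33 and PLC 0.81, while the median of all genes moved from 0.022 to 0.58. Relative to that median, norpA was lower and PLC higher in Experiment 2 under both scalings. The controls gave -0.13 for norpA (adjusted p = 0.16) and 0.29 for PLC (adjusted p = 0.10), saline against mock insemination, in a contrast with 50.5% of genes called.

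The number of norpA counts per PLC count in a library does not depend on how libraries are scaled, and it compares the change of one gene with that of the other. In Experiment 1 this ratio was 0.687, 0.625 and 0.728 in the mock libraries (replicates A, B and C). It was 0.798, 0.862 and 0.782 in the semen libraries. It was 0.675, 1.09 and 1.06 in the seminal fluid libraries. Seminal fluid replicate A, the pool with the high PLC level, thus fell among the controls, while the other 5 inseminated libraries lay above them. In Experiment 2 the ratio was 0.494, 0.513 and 0.509 in the saline libraries. It was 0.612, 0.699 and 0.632 after semen and 0.614, 0.562 and 0.634 after seminal fluid, so that all 6 inseminated libraries lay above the 3 controls.

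The log2 ratio was 0.33 higher in inseminated queens than in controls, averaged over the experiments, a 1.26-fold higher ratio (p = 0.0023, two-sided exact permutation test in which control labels moved only within an experiment, over 7056 labelings). The ratio was higher in 11 of 12 inseminated libraries than in every control of their experiment. Within Experiment 1 the difference was 0.35 (p = 0.083 over 84 labelings, exact permutation test), and within Experiment 2 it was 0.30 (p = 0.012, the smallest that 84 labelings can give). Without seminal fluid replicate A of Experiment 1 the difference over both experiments was 0.36 (exact permutation p = 0.00021). Taken as a difference of medians it was 0.28 and missed the level of 0.05 (exact permutation p = 0.053). Of the 9 pairs of groups compared, none can go below p = 0.10 with 3 libraries against 3, and the adjusted exact p values were 0.15 or more. The ratio was lower in Experiment 2 than in Experiment 1 for each of the 3 group pairs, with no overlap, by 0.33 between semen groups, 0.61 between seminal fluid groups and 0.43 between controls on the log2 scale.

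**Figure D3:**
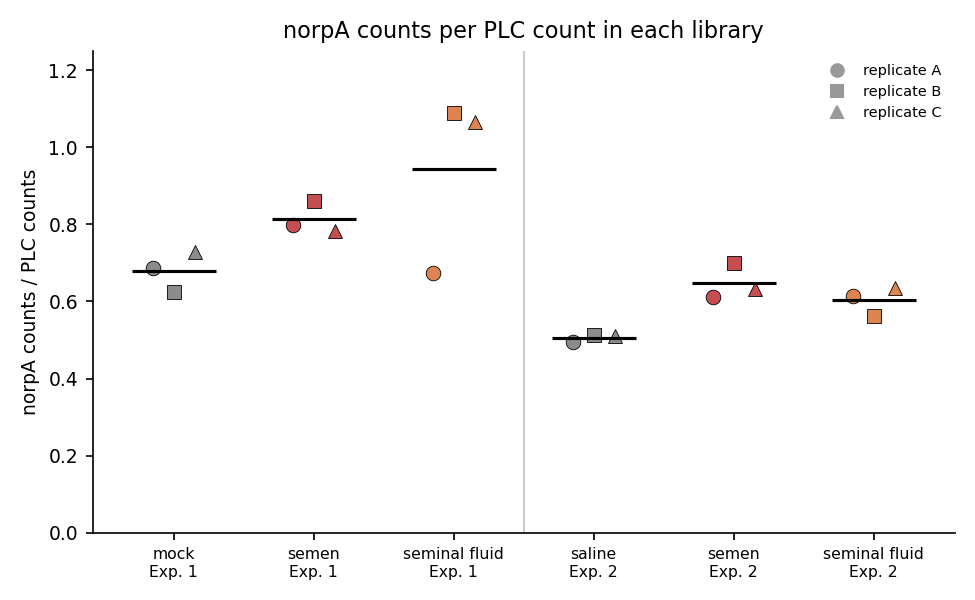
Counts of norpA divided by counts of PLC (vertical axis) in each library, with the group mean as a line and symbols for replicates A, B and C. Every inseminated library lies above the controls of its own experiment except seminal fluid replicate A of Experiment 1, at 0.675.

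Within groups, pools with more norpA were not shown to have more PLC over the 18 libraries. Over the deviations of the 18 libraries from their group means on the log2 CPM scale, Pearson's r was 0.096 (exact permutation within groups, p = 0.85, adjusted p = 0.87) and Spearman's rho was 0.15 (exact p = 0.62, adjusted p = 0.65). Without the 2 libraries farthest from the median norpA deviation, r was 0.18 (exact p = 0.35). That choice, made on norpA, kept seminal fluid replicate A of Experiment 1. This library had the largest PLC deviation, 0.40, beside a norpA deviation of -0.052. The correlation without it was not computed. Experiment 1 alone gave r = -0.15 (exact p = 0.87) and rho = -0.23 (exact p = 0.65). Experiment 2 alone gave r = 0.65 (exact p = 0.0093, adjusted p = 0.046 over 5 relations) and rho = 0.62 (exact p = 0.069, adjusted p = 0.35). Without the 2 farthest libraries of that experiment, saline replicates A and C, r was 0.79 (exact p = 0.083), with 1 saline library left and 36 arrangements in place of 216. The relation of Experiment 2 was not seen in Experiment 1, where seminal fluid replicate A was kept. Whether it would be seen there without that library was not tested.

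Beside the phospholipase C genes, the phototransduction list held 20 genes, all of which passed the filter on low counts in both experiments. The study drew this list as a pathway found on these samples, so its direction is not independent evidence. In the fit of both experiments, 1 of the 20 genes was called higher and none lower, beside the 2.60% of all genes. It was Actin (a), GB41311, one of the 2 actin genes of the list (actin forms the core of photoreceptor microvilli), at 1.90 on the log2 scale (SE 0.20, adjusted p = 4e-05). Actin genes are near-identical copies in many insects, and how reads shared between GB41311 and Actin (b), GB41310, were counted is not known here. Among the 20 genes, 13 had a positive log2 fold change, and the median was 0.070, against -0.018 over all genes.

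The genes that act around phospholipase C in the cascade were not called over both experiments, which does not show that they were unchanged. Upstream, GNB1, a G protein beta subunit, gave 0.11 (adjusted p = 0.89). The scaffold gene inaD, whose protein in Drosophila binds norpA, TRP and protein kinase C, gave 0.12 (adjusted p = 0.65). Downstream, the channel gene TRP gave -0.020 (adjusted p = 0.97) and TRPgamma, which encodes a related channel, gave 0.17 (adjusted p = 0.28). Genes for enzymes that respond to the products of the reaction were not called either, with 0.029 for Pkc (protein kinase C, adjusted p = 0.88) and 0.026 for Camkii (calcium/calmodulin-dependent kinase, adjusted p = 0.95). DAGLB, a lipase of diacylglycerol, gave the lowest value of the list, -0.67 (adjusted p = 0.13). Its seminal fluid pools lay below the controls without overlap, at -0.70 against mock insemination and -1.55 against saline (adjusted p = 0.29 and 0.28). How many of all genes lay lower without overlap is not given here. The semen pools of DAGLB overlapped with the controls, at 0.039 and -0.47 (adjusted p = 0.99 and 0.77).

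The other motor and actin genes of the list were not called over both experiments either. The myosin III genes ninaC and myosin-IIIb gave 0.16 (adjusted p = 0.77) and 0.12 (adjusted p = 0.85), Arp1, an actin-related gene, gave 0.14 (adjusted p = 0.32), and Actin (b) gave 0.21 (adjusted p = 0.68). Some of these means join unlike values. After semen, Actin (b) gave -0.46 against mock insemination and 0.95 against saline, and ninaC gave 0.45 and -0.35. After seminal fluid, Actin (b) gave -0.091 and 0.42, and ninaC gave 0.20 and 0.34. The difference between experiments was not called for Actin (b) or ninaC (adjusted p = 0.96 and 0.98). In each of the 4 single comparisons with controls, Actin (a) was the 1 of the 20 other genes called by edgeR, with log2 fold changes of 1.72 to 2.17 and adjusted p values of 0.012 to 0.078. None of the 22 genes was called between seminal fluid and semen in either experiment.

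**Figure D4:**
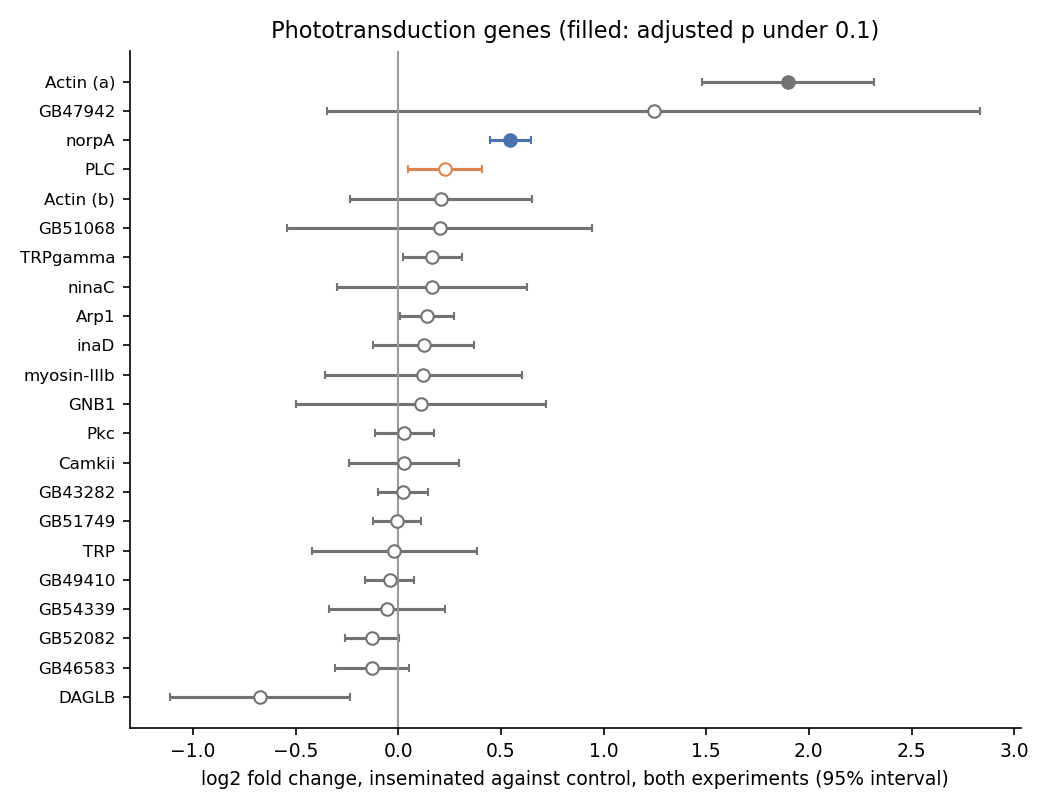
Log2 fold change of inseminated queens against controls over both experiments (horizontal axis) with 95% intervals from edgeR, for the 22 phototransduction genes in order of their value; filled points have an adjusted p under 0.1. Actin (a) at 1.90 and norpA at 0.55 are the 2 genes called, and PLC stands at 0.23.

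Markers of photoreceptors were measured beside norpA, since its protein is best known from these cells. Those that could be matched were ninaC, TRP, inaD, myosin-IIIb and chaoptin (GB41723, a cell surface protein of photoreceptors). The opsins and markers of other cell types were not matched to gene models here. None of the 5 was at 0 in any group, and their summed level was 245 to 308 CPM after mock insemination, 289 to 351 CPM after semen and 280 to 357 CPM after seminal fluid in Experiment 1. In Experiment 2 it was 206 to 271 CPM after saline, 208 to 220 CPM after semen and 233 to 436 CPM after seminal fluid. The marker sums overlapped between each treated group and its controls. Most of each sum came from inaD and myosin-IIIb, with group means of 99.2 to 171 CPM and 56.3 to 155 CPM. Chaoptin had group means of 1.47 to 10.2 CPM, so the sum could hardly show a change of it. Single markers did separate in places. Chaoptin was higher without overlap in all 4 comparisons with controls, and ninaC was higher without overlap after semen than after mock insemination (0.45 on the log2 scale, adjusted p = 0.94). Of all genes, 6.34% and 8.28% were higher without overlap for semen and seminal fluid against mock insemination. Against saline the shares were 7.16% and 6.77%. After semen, ninaC, TRP and myosin-IIIb lay below saline without overlap, at -0.35, -0.40 and -0.41 (adjusted p = 0.85, 0.80 and 0.84). The share of all genes lower without overlap in that comparison is not given here, so these separations are descriptions only.

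In each of the 4 comparisons with controls, 1 of the 5 markers was called, and it was chaoptin, at log2 fold changes of 1.30 to 1.90 (adjusted p = 0.0024 to 0.066). Of all genes, 0.128% and 0.162% were called for semen and seminal fluid against mock insemination, and 0.328% and 0.429% against saline. The other 4 markers had adjusted p values of 0.48 or more in these comparisons. A covariate was also fitted, the mean log2 CPM of ninaC, TRP, GNB1 and myosin-IIIb. It held GNB1, which is not among the 5 markers, and left out inaD and chaoptin. The fit therefore does not adjust for chaoptin, the marker that was called. With the covariate, the norpA value over both experiments was 0.55 (adjusted p = 2.7e-05), and those in Experiment 2 were 0.51 and 0.49 and remained called. Against mock insemination the semen value was 0.58 with the covariate (adjusted p = 0.69, beside 0.114 without it). The seminal fluid value was 0.64 with the covariate and its call was lost (adjusted p = 0.16). Seminal fluid replicate C of Experiment 2 had the highest marker sum, 436 CPM, and its norpA level of 334 CPM stood beside 337 and 338 CPM in the other pools of its group. The markers did not move together in this library. It held the most myosin-IIIb of its group (206 CPM against 47.1 and 64.3), and also the most ninaC and TRP. It held the least inaD (164 CPM against 166 and 181) and the least chaoptin (3.11 CPM against 3.99 and 3.82). Without that library norpA was 0.49 higher after seminal fluid than after saline on the log2 scale (adjusted p = 0.059).

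**Figure D5:**
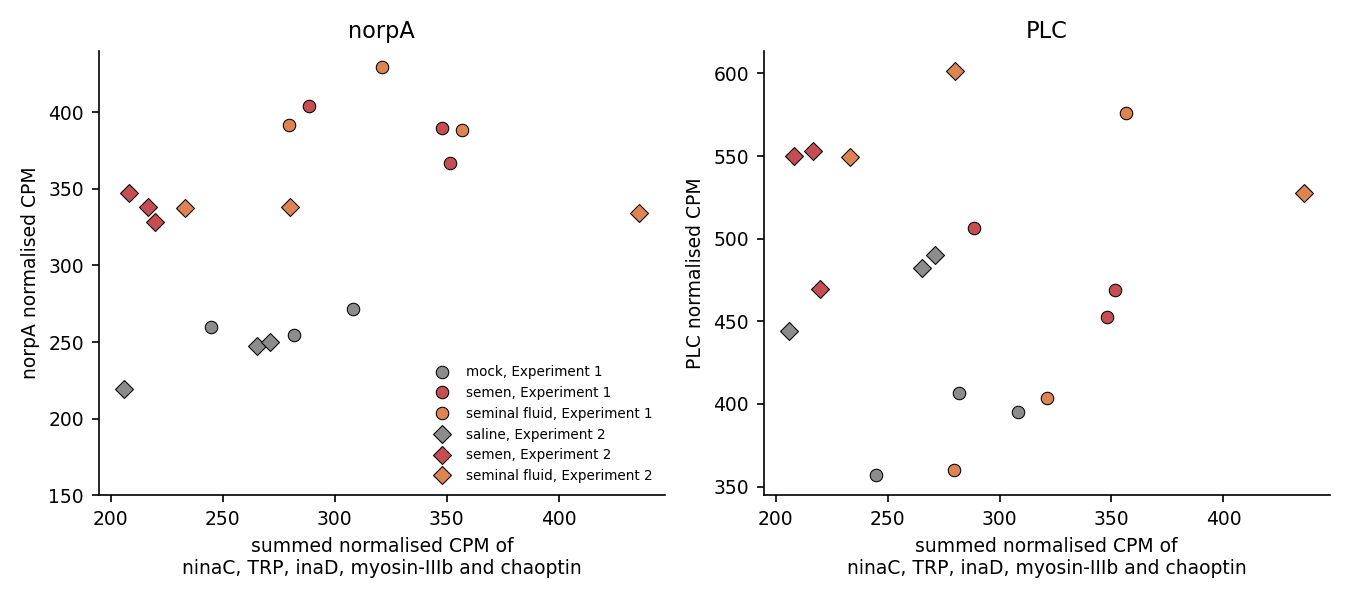
Normalised CPM of norpA (left) and PLC (right) against the summed normalised CPM of 5 photoreceptor genes in each library (circles, Experiment 1; diamonds, Experiment 2; grey, controls; red, semen; orange, seminal fluid). The 6 control libraries lie below the 12 inseminated ones for norpA at marker sums of 206 to 308 CPM, and the vertical axes do not start at 0.

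The genes whose pattern was most like that of norpA were sought over the 18 libraries by the correlation of log2 CPM after the mean of each experiment was removed, among 11651 other genes tested in both experiments. The libraries share their groups, and these correlations are descriptions. Differences between treated and control groups stayed in them, so a rise of the genes found is not independent of the search. The first 5 were the facilitated trehalose transporter gene Tret1 (GB48936, r = 0.98), a Hemicentin-1-like gene (GB44248, r = 0.97), a cell adhesion molecule 3-like gene (GB53593, r = 0.95), a disintegrin and metalloproteinase 10-like gene (GB46342, r = 0.94) and a J domain-containing gene (GB41376, r = 0.94). Tret1 carries trehalose, the main blood sugar of insects, across membranes, and J domain proteins are partners of the chaperone Hsp70. Their log2 fold changes against controls were larger than those of norpA in each comparison, with 0.58 to 0.79 for the J domain gene and 3.21 to 3.62 for the Hemicentin-1-like gene. By rank correlation, 1 of these 5 genes, Tret1, was again among the first 5.

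PLC stood at rank 553 in the list of norpA (r = 0.57), and norpA at rank 901 in that of PLC. The 5 genes most like PLC had no name in the sources used here, and their r values were 0.88 to 0.93, led by GB48665 and GB43191. None of the 5 was called by edgeR in any of the 6 comparisons. Of the phototransduction genes, Actin (a) had the pattern most like each phospholipase C gene, with r = 0.92 for norpA and r = 0.73 for PLC.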

How the data were processed

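RNA of 18 pools of 3 queen brains was sequenced as single-end reads of 120 bp. The deposited files hold raw counts, not normalised. To make them, the authors trimmed reads (Trimmomatic), discarded ribosomal ones (SortMeRNA), aligned the rest to honeybee assembly 4.5 with STAR 2.4.2a and ran htseq-count. The strand setting and overlap mode are not given in the sources used here, so reads of overlapping or antisense genes cannot be told apart. The 5 lines of unassigned totals, 27.9% to 31.2% of the counts of a file, were left out.

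Counts were tested with edgeR 4.0.16 in R 4.3.3 (TMM, quasi-likelihood, 10 or more counts required in 3 or more libraries). Each experiment was fitted with its 9 libraries, and contrasts over both experiments with all 18. Log2 CPM used a prior count of 2. Adjusted p values cover all genes of a comparison. The tests were first tested on simulated data. Within groups, library pairs differed by a chi-square of 17.8 or more per gene, so none was counted as a duplicate. P values of differences between groups judge them against the spread between pools, and counting errors cover reads only. All queens came from a single colony, so the spread between colonies is not covered.

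Alternatives were DESeq2 1.42.0, limma-voom (limma 3.58.1), other scalings and filters, other sets of libraries, a replicate block, a photoreceptor covariate and each library left out. Fits without scaling factors, DESeq2 with a library left out, and Experiment 2 without its 2 farthest libraries were added after seeing the data. The members and lists were chosen with earlier results of these data known. The text names both phospholipase C genes, the phototransduction genes named in the study or called, the matched photoreceptor markers and the genes most correlated with each member. Names come from the study's tables, and 20 of the 22 phototransduction genes were found in the RefSeq table (assembly Amel_HAv3.1). Positions on assembly 4.5, protein and promoter sequences and other phosphoinositide genes were not used here.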

Additional observations from a re-analysis of the deposited data

How the results depend on the processing

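The norpA rise over both experiments kept its call under every alternative run, at log2 fold changes of 0.52 to 0.57, and no alternative called PLC in a comparison within experiments or over both. The norpA direction against controls did not change under any alternative. For semen against mock insemination norpA was called by DESeq2 (0.56, adjusted p = 5.1e-06) and in the fit of all 18 libraries (0.56, adjusted p = 0.0029), and leaving out each library gave 0.54 to 0.59. For seminal fluid against mock insemination the call was lost with the photoreceptor covariate (0.64, adjusted p = 0.16) and with only the 6 libraries compared (0.63, adjusted p = 0.17). Leaving out each library gave 0.59 to 0.68. For seminal fluid against saline it was lost with only the 6 libraries compared (0.49, adjusted p = 0.13), and leaving out each library gave 0.43 to 0.52. For semen against saline leaving out each library gave 0.46 to 0.54. Fewer libraries entered these fits, and the cause of the other changes was not tested.

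Letters A to C were not taken as pairs, since same-letter libraries did not deviate together (correlations of -0.17 to 0.067 in Experiment 1 and -0.20 to 0.11 in Experiment 2). With the replicate block the norpA calls of the single comparisons were lost, at 0.63 for seminal fluid against mock insemination (adjusted p = 0.13), 0.52 for semen against saline (adjusted p = 0.11) and 0.49 for seminal fluid against saline (adjusted p = 0.10). The block left the call over both experiments (0.55, adjusted p = 0.00022) and the ratio of norpA to PLC (0.33, exact permutation p = 0.0082), and changed genes called from 15 to 8 for semen against mock insemination, from 39 to 25 for semen against saline, and from 1 to 4 for seminal fluid against semen of Experiment 2.

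The PLC value for seminal fluid against semen took the other sign when 1 library was left out, with ranges of -0.29 to 0.040 in Experiment 1 and -0.0056 to 0.12 in Experiment 2, as did its difference between experiments, at -0.12 to 0.055. The ratio of norpA to PLC was 0.29 to 0.36 with each library left out, and its call at 0.05 was lost with medians (0.28). The correlation of norpA and PLC within groups was -0.15 in Experiment 1 and 0.65 in Experiment 2. The difference of inseminated norpA levels between experiments was 0.33 without scaling factors. DESeq2 called 94, 281, 330, 276 and 831 genes in place of 15, 19, 39, 51 and 1 in the comparisons of semen and seminal fluid with mock insemination, the same with saline, and seminal fluid with semen of Experiment 2, and 570 in place of 313 over both experiments. The fit of all 18 libraries called 63 and 619 genes in the comparisons with mock insemination, and the fit of the 6 libraries compared called 4 for seminal fluid against mock insemination, 17 for seminal fluid against saline and 1201 for seminal fluid against semen of Experiment 2. With 3 pools a group, the calls of norpA near an adjusted p of 0.1 in single comparisons moved with these choices more than its fold changes did.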
